A study of Mus musculus with 3 samples.

Results

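The sebaceous gland spots of the Day 3 section were 78 spots chosen by a score of 6 genes that mark sebaceous glands, namely *Far2*, *Elovl4*, *Fa2h*, *Krt79*, *Aldh3a1* and *Defb8*. The score of a spot was its summed unique molecular identifiers (UMIs, 1 per captured transcript) of these genes as a percent of all its UMIs. Of the 664 spots that the positions table marks as lying under tissue, 520 held at least 500 UMIs, and the top 15% of these by score were the members, which left 442 other spots for comparison. The series held 1748 such spots over its 3 sections. Because the members were selected on the score genes in this same section, every Day 3 value below is a description with no test. The values come from spots, each a small region that can hold several cells of different types, so fewer cells of a type and less RNA per cell cannot be told apart.

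The sections were spatial transcriptomes of fresh frozen wounded skin from C57BL/6J mice, taken 3, 7 and 14 days after wounding, with 1 section per day. According to the study's methods the animals were adult males and carried full-thickness punch wounds of the shaved back. The sections compared here carried no other named allele or agent, and no unwounded section was analysed here. With 1 section per day there were no replicates, and all intervals below are 95% intervals for counting error only. The Day 3 section was the shallowest, with 1772259 UMIs over all its marked spots. The marked spots with at least 500 UMIs alone held 4440350 on Day 7 and 4609817 on Day 14.

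Sebaceous glands are lobes of lipid-filled epithelial cells attached to the upper hair follicle. Their cells, the sebocytes, make fatty acids, elongate and desaturate them, build wax esters, triglycerides, sterol esters and ceramides, store these in droplets and release them as sebum when the whole cell breaks down. The transcription factor PPARγ drives sebocyte differentiation, and the SREBP factors drive transcription of the genes of fatty acid and sterol synthesis.

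The members were deeper than the rest of the section. They held 609 to 21231 UMIs per spot with a median of 6375, and the other spots 502 to 23372 with a median of 1791. The members' scores ran from 0.209% to 2.51% with a median of 0.397%. The lowest member scored 0.209% and the highest other spot 0.206%, so no gap separated the sets at the limit. Among the other spots 207 of 442 had no UMI of a score gene. Members held 28.3% of the UMIs of the spots used and 82.1% of their score UMIs. Mitochondrial transcripts made up 4.93% of the members' UMIs and 7.06% of those of the other spots, and the part of this in the results was not tested.

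Of the score genes, *Elovl4*, an elongase of very long chain fatty acids (chr9:83778692-83806277, minus strand, GRCm38), gave 49.5% of the members' score UMIs and was read in 76 of 78 members. *Far2*, which reduces fatty acyl-CoA to the fatty alcohols of wax esters (chr6:148047259-148182758, plus strand), was read in 65 members and 43 other spots. *Fa2h*, which adds a hydroxyl group to fatty acids (chr8:111345135-111393824, minus strand), was read in 67 members, and *Krt79*, a keratin of the gland's duct and the follicle canal (chr15:101929332-101940324, minus strand), in 66. The aldehyde dehydrogenase *Aldh3a1* (chr11:61207537-61218421, plus strand) was read in only 35 members. The β-defensin *Defb8* (chr8:19445769-19447606, minus strand) was read in 27 members, with 120 UMIs there and 8 in the other spots. By pooled UMIs scaled to a total of 1000000 (CPM), the ratio of members to other spots was 10.9 for *Elovl4*, 13.4 for *Far2*, 15.9 for *Fa2h*, 10.0 for *Krt79*, 3.37 for *Aldh3a1* and 37.9 for *Defb8*. These ratios follow from the choice of members and support nothing.

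The members were not scattered evenly. 66 of the 78 lay in 2 patches of adjoining spots and the remaining 12 touched no other member. The larger patch had 46 spots in array columns 47 to 72 and rows 46 to 54, and the smaller 20 spots in columns 30 to 41 and rows 51 to 55. A member had on average 3.67 adjacent members and another spot 0.324. The 12 isolated members were shallow, with 609 to 1991 UMIs and only 2 to 5 score UMIs each. They held 38 UMIs of the 25 leading genes described below, 2706 CPM, which was nearer the other spots (1949.7 CPM) than the larger patch (16507 CPM) or the smaller (20186 CPM). These genes were picked as high in the pooled members, most of whose UMIs lie in the patches, so the levels there follow from the choice and support nothing. In the isolated members the counting interval of these genes, 1915 to 3714 CPM, held the level of the other spots. Genes of cholesterol synthesis and uptake stood at 1709 CPM there (interval 1095 to 2543). Their level was 1478 CPM in the other spots, 8292 in the larger patch and 11454 in the smaller. Fatty acid genes stood at 4130 (interval 3136 to 5338), 4719, 15563 and 18300 CPM in that order. On these lists the isolated members, though their counts were few, resembled the other spots. Their label of sebaceous gland rests on the score alone.

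**Figure D1:**
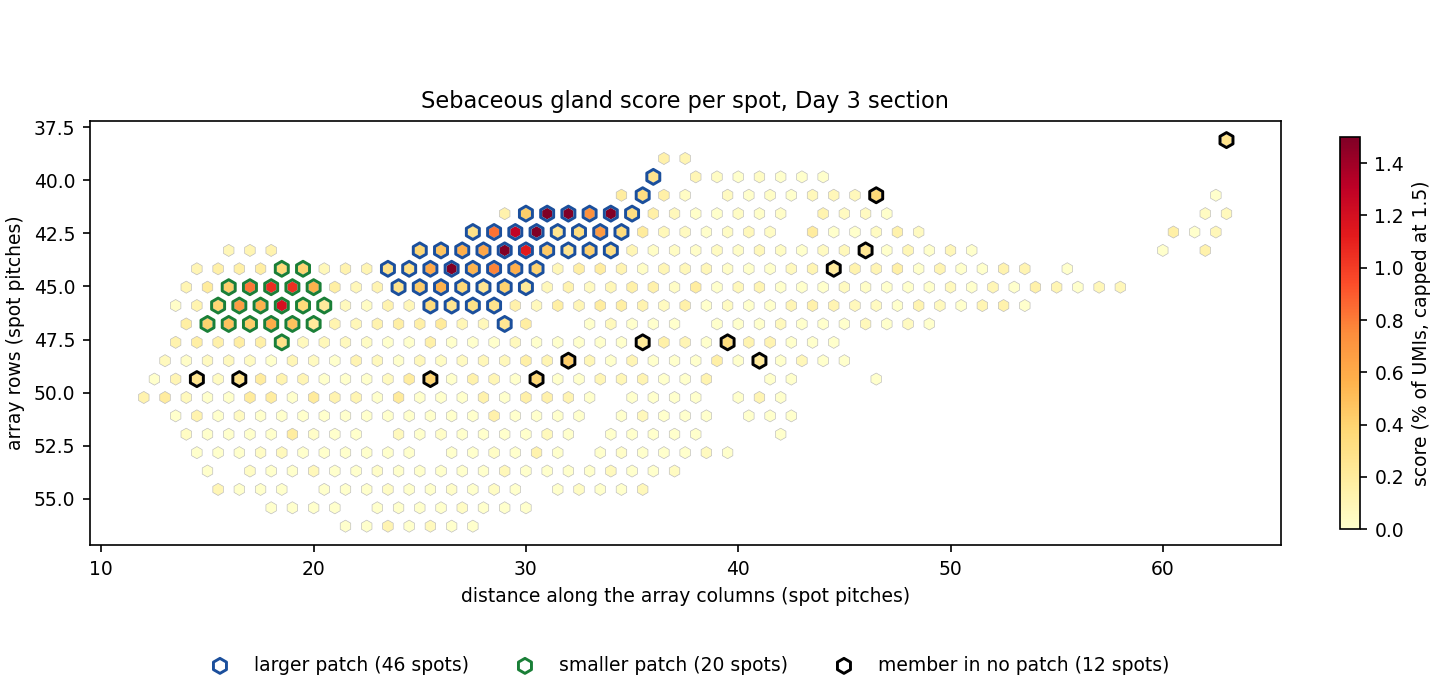
Map of the marked Day 3 spots with at least 500 UMIs, with distances along the array in spot pitches on both axes, members outlined by patch, and spots coloured by the 6-gene score in percent of UMIs, capped at 1.5. 46 members form the larger patch, 20 the smaller and 12 stand alone.

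With the score genes left out, 5631 genes had at least 50 UMIs over both sets. Of these 376 (6.68%) were at least 2-fold higher in the members by pooled CPM and 387 (6.87%) at least 2-fold lower, around a median log2 ratio of 0.005. Every count of called genes in a list against the other spots is to be read beside these shares. The 25 leading genes, those with the highest lower bound of the ratio, were mostly enzymes of lipid and retinoid metabolism. Of these, 24 are given below by what they do, with the pooled ratio of members to other spots.

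Cholesterol synthesis gave *Msmo1* and *Cyp51*, which remove methyl groups from sterol precursors. *Msmo1* ranged from 0 to 4051 CPM over the members with a median of 806, and from 0 to 2008 CPM over the other spots with a median of 0. Pooled, it stood at 1321 CPM in members and 179.8 CPM in other spots, a ratio of 7.35 (95% interval 6.31 to 8.59). *Cyp51* had a ratio of 7.66 (95% interval 6.09 to 9.7). The ranges overlapped between members and other spots, since most members and some other spots held these genes while some members held none. *Msmo1* was read in 69 of 78 members and 117 of 442 other spots. *Cyp51* was read in 58 members and 69 other spots.

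Fatty acid elongation and desaturation gave *Elovl6*, which lengthens saturated chains from palmitate, *Elovl3*, another elongase, *Hsd17b12*, the ketoacyl reductase of the elongation cycle, and *Scd3*, a Δ9 desaturase. *Elovl6* ranged from 0 to 6264 CPM over the members with a median of 1092, and from 0 to 2179 CPM over the other spots with a median of 0. The pooled ratio was 8.87 (95% interval 7.78 to 10.1) for *Elovl6*, 9.95 (95% interval 7.74 to 12.9) for *Elovl3* and 7.44 (95% interval 6.37 to 8.73) for *Hsd17b12*. *Scd3*, at 12.5 (95% interval 8.18 to 19.9), is a close paralog of *Scd1* and *Scd2*, so its counts are uncertain where reads were split among them. *Acsl5*, which couples fatty acids to coenzyme A, was at 7.62 (95% interval 5.81 to 10.1).

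Wax ester synthesis gave the acyltransferases *Awat1* and *Awat2*, which join fatty alcohols to fatty acids. Both were sparse: *Awat1* had 50 UMIs in members and 11 in other spots, a ratio of 11.5 (95% interval 5.9 to 24.5). *Awat2* had 46 and 10, a ratio of 11.6 (95% interval 5.79 to 25.8). *Cers4*, a ceramide synthase, ranged from 0 to 5699 CPM over the members with a median of 667, and from 0 to 1852 CPM over the other spots with a median of 0. Pooled, it stood at 1265 against 129.7 CPM, a ratio of 9.76 (95% interval 8.2 to 11.7), and was read in 61 members. *Cidea*, a protein of lipid droplet fusion, had a ratio of 14.9 (95% interval 9.59 to 24) and was read in 42 members. *Aadac* (22-fold) and *Ces4a* (11-fold) encode esterases, and *Adtrp* (9.48-fold) a hydrolase of fatty acid esters.

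Retinoid and steroid genes formed another group. *Sdr16c6* and *Rdh9*, of the retinol dehydrogenase kind, were at 9.02 (95% interval 7.3 to 11.2) and 13 (95% interval 7.13 to 25.7), and *Rarres1*, named for its response to retinoic acid, was at 15.5 (95% interval 10.8 to 23). *Rarres1* was read in 48 of 78 members. The cytochrome P450 *Cyp2g1* was at 18.8 (95% interval 9.34 to 42.9), and *Paqr7*, a membrane progestin receptor, at 9.68 (95% interval 7.83 to 12). The rest were *Lhpp*, a phosphatase, at 12.1-fold, *Echdc1*, which removes a side product of fatty acid synthesis, at 8.23-fold, the channel gene *Panx3* at 15.7-fold, and the serpins *Serpina3b* (12.9-fold) and *Serpina3j* (10.3-fold), whose reads may be shared within their gene cluster.

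**Figure D2:**
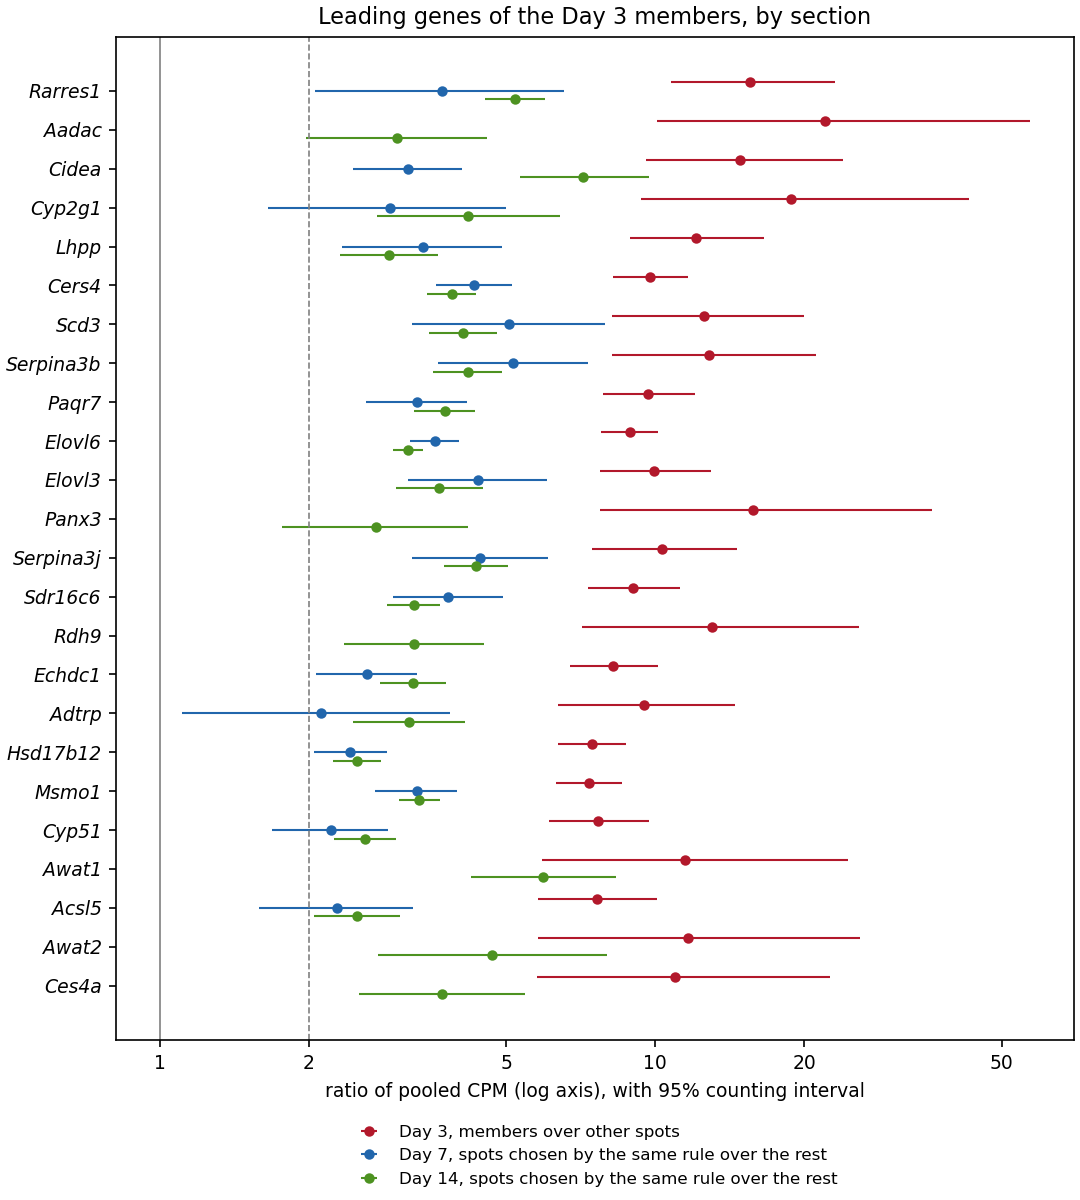
Ratio of pooled CPM, log axis, for 24 leading genes in members over other spots on Day 3 (red) and in the spots chosen by the same rule on Day 7 (blue) and Day 14 (green), with bars for the 95% counting intervals and a point only where a gene had 50 UMIs. On Day 3 all 24 lie between 7.35 and 22, and the later points, at 2.12 to 7.16, also lie above 2.

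Depth can raise the share of spots in which a gene is read, so each spot was also thinned to 500 UMIs. After thinning, *Elovl6* was read in 47.4% of members, 9.73% of other spots and 2.56% of the 78 spots richest in skeletal muscle genes, where the gland genes would be background. Unthinned these shares were 85.9%, 34.2% and 8.97%. For *Cers4* the thinned shares were 29.5%, 4.52% and 1.28% in the same order, against 78.2%, 23.3% and 6.41% unthinned. Median depths were 6375 UMIs in members and 1531 in muscle-rich spots. In the 46 non-member spots among those richest in upper epidermis genes, the thinned shares were 17.4% for *Elovl6* and 13.0% for *Cers4*. At equal depth the members still held both genes more often than each of these sets. For *Cers4* the intervals of members (19.7% to 40.9%) and epidermis-rich spots (4.94% to 26.3%) overlapped. Both genes were picked as high in the members, so the direction follows from the choice.

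Cholesterol synthesis and uptake was the list with the most genes called. Of its 24 genes, 18 had the minimum of 50 UMIs and 18 of these were at least 2-fold higher, none lower, beside 6.68% of all genes counted. The median log2 ratio was 2.32, and the summed list stood at 9118 against 1478 CPM, a ratio of 6.17 (95% interval 5.84 to 6.51). Over single spots the list ranged over 0 to 21761 CPM in members and 0 to 7223 CPM in other spots, with medians of 5381 and 1037. The genes covered several stages of the pathway. *Hmgcs1*, a synthase of its start, was at 5.79-fold. *Idi1* of the isoprenoid stage was at 7.96-fold. *Sqle*, which oxidises squalene, was at 3.43-fold and *Lss*, which closes the sterol rings, at 7.86-fold. *Insig1*, a sterol sensor that restrains the SREBP factors, was at 2.78-fold.

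Because these genes were higher together, their promoter windows were searched for a sterol regulatory element (TCACNCCAC) and for a CCAAT box (CCAAT), on both strands, with overlapping matches allowed. The windows ran from 250 bases before to 50 bases after the start site, taken from RefSeq on GRCm38.p6. Of all 32851 windows, 1.24% held the sterol element and 37.4% the CCAAT box; by gene the shares were 1.44% and 41.1%. Of the 18 cholesterol genes counted, 12 had a window, of which 11 (91.7%) held a CCAAT box and 1 (*Hmgcs1*, 8.33%) the sterol element. Of the 25 leading genes 19 had a window, 12 (63.2%) with a CCAAT box and 2 (*Echdc1* and *Paqr7*, 10.5%) with the sterol element. *Cyp51* and *Msmo1* are in both sets. Of the 15 genes with the lowest upper bound, given further below, 10 had a window. A CCAAT box was in 5 (50%) of these and the sterol element in 0. For the lowest genes the CCAAT share, 5 of 10, was near the 41.1% of all genes and cannot be told from it with so few genes. The shares of the sets were not tested against that of all genes. A match describes letters and shows neither a bound site nor a cause, and a missing match says only that these letters are not in the window.

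Shown here are the windows of *Hmgcs1* (chr13:119690101-119690400, plus strand), the cholesterol gene with both motifs, of *Msmo1* (chr8:64733529-64733828, minus strand) and *Cyp51* (chr5:4104648-4104947, minus strand), leading genes with CCAAT boxes only, and of the *Echdc1* window with the sterol element (chr10:29313250-29313549, plus strand), in which that element overlaps a CCAAT box. They are written 5′ to 3′ on the gene's strand, with capitals for every match of either motif on either strand.
Hmgcs1: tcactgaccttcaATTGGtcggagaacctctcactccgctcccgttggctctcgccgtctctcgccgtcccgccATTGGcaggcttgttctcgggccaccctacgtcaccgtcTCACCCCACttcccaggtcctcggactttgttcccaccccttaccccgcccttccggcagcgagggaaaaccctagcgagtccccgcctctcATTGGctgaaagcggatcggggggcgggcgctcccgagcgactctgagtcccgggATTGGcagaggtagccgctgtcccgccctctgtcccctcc
Msmo1: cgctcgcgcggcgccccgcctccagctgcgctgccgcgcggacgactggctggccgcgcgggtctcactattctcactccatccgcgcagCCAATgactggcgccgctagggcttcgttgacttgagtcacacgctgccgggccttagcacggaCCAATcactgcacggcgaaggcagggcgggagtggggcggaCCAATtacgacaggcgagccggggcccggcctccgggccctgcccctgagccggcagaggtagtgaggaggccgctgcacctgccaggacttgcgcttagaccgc
Cyp51: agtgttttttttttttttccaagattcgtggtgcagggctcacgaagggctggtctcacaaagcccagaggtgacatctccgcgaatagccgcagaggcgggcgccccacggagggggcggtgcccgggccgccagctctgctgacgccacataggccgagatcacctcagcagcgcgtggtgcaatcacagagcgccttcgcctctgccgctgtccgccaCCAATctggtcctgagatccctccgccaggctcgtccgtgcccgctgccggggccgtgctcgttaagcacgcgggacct
Echdc1: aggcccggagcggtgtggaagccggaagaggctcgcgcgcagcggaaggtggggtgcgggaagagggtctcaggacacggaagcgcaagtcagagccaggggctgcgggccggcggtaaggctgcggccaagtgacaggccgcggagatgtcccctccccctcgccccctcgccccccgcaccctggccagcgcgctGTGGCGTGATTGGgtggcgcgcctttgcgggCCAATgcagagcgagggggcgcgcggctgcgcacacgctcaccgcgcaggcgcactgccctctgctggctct

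Fatty acid synthesis, elongation and desaturation was split. Of 29 genes, 24 were counted. Of these, 13 were at least 2-fold higher and 3 at least 2-fold lower, beside 6.68% and 6.87% of all genes. The median log2 ratio was 1.45 and the summed ratio 3.42 (95% interval 3.3 to 3.53). *Scd1*, the main Δ9 desaturase of skin, had the most UMIs (2874 in members, 1950 in other spots) and a ratio of 3.73. It ranged from 0 to 18699 CPM over the members with a median of 3295, and from 0 to 37955 CPM over the other spots with a median of 689, so the ranges overlapped. Elongation genes other than the leading ones included *Elovl5* at 6.44-fold, the dehydratases *Hacd2* at 6.3-fold and *Hacd3* at 4.33-fold, and the reductase *Tecr* at 3.34-fold. Of the genes that supply and build the chain, *Acly* was at 2.97-fold and *Acacb* at 3.92-fold, but *Fasn*, the fatty acid synthase itself, was at 1.53 (95% interval 1.34 to 1.74) and *Acaca*, which makes its substrate, at 0.809 (95% interval 0.488 to 1.3). Neither reached 2-fold. The lower ones were *Thrsp* (0.328), *Hacd1* (0.246) and *Acsl1* (0.488), genes also used in fat or muscle.

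Ester synthesis beyond the wax synthases was mostly level. Of 17 genes, 12 were counted, with a summed ratio of 1.84 (95% interval 1.69 to 2.01) and a median log2 ratio of 0.36. Of the 12, 4 were called higher and none lower, beside 6.68% and 6.87% of all genes. Besides *Awat1* and *Awat2* these were *Soat1*, which esterifies cholesterol, at 4.93-fold and *Gpam*, which starts glycerolipid synthesis, at 2.43-fold. *Dgat1* and *Dgat2*, which make triglyceride, were at 1.31 and 1.27. Ceramide and barrier lipid genes had 4 of 11 counted called higher (summed ratio 2.49, 95% interval 2.3 to 2.69): *Cers4*, *Cers5* (2.82-fold), the ω-hydroxylase *Cyp4f39* (4.71-fold) and the sphingomyelinase *Smpd1* (2.48-fold).

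Lipid droplet, lipolysis and carrier genes lay both ways, with 8 of 19 counted higher and 2 lower, beside 6.68% and 6.87% of all genes. The median log2 ratio was 0.00 and the summed ratio 2.3 (95% interval 2.21 to 2.4). After *Cidea* came *Mgll*, a monoglyceride lipase, at 5.69-fold, the fatty acid transporter *Slc27a4* at 5.09-fold, the carrier *Fabp5* at 4.03-fold, *Apoc1* at 3.42-fold and the droplet coat gene *Plin2* at 2.03-fold. *Cidec*, the droplet fusion gene of white fat, was at 0.384 and *Fitm1*, known from muscle, at 0.327. Peroxisomal genes had 9 of 19 higher and 1 lower, beside the same shares of all genes (summed ratio 1.88, 95% interval 1.76 to 2.01). Among them were the oxidase *Acox3* at 5.2-fold, *Pex11a* at 4.92-fold, the fatty acid transporter *Abcd3* at 3.56-fold and *Hsd17b4* at 3.06-fold, while *Abcd2* was at 0.184.

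Regulators of the sebaceous lineage and of lipid genes were counted next. Of 19 with the minimum, 5 were called higher and none lower, beside 6.68% and 6.87% of all genes (summed ratio 1.57, 95% interval 1.46 to 1.69). They were *Sox9* (2.86-fold), *Gata3* (2.65-fold), *Fgfr2* (2.31-fold), *Cebpa* (2.27-fold) and *Scap*, the SREBP escort (2.25-fold). *Srebf1* was at 1.85 (95% interval 1.29 to 2.63) and *Srebf2* at 1.31 (95% interval 0.873 to 1.95). *Pparg*, which encodes PPARγ, had only 12 UMIs in members and 40 in other spots, a ratio of 0.758 (95% interval 0.362 to 1.47), so a difference was not detectable at this depth. Retinoid, detoxification and redox genes had 6 of 13 higher and 1 lower (summed ratio 2.23, 95% interval 2.09 to 2.38), with *Aldh3b2* at 5.85-fold, *Sdr16c5* at 5.45-fold, the glutathione transferase *Mgst1* at 3.65-fold, the retinoic acid binding protein gene *Crabp2* at 2.68-fold and *Cyp2e1* at 0.255.

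Antimicrobial genes as a list were not higher. Of 7 counted, 1, the β-defensin *Defb6* at 5.44 (95% interval 3.36 to 9.03), was called higher, and the summed ratio was 0.787 (95% interval 0.731 to 0.847). Lysosomal genes had 1 of 14 higher, the cholesterol exporter *Npc1* at 2.05-fold, and a summed ratio of 0.979 (95% interval 0.945 to 1.01). With so few genes, neither count of 1 can be told from the 6.68% of all genes called higher.

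**Figure D3:**
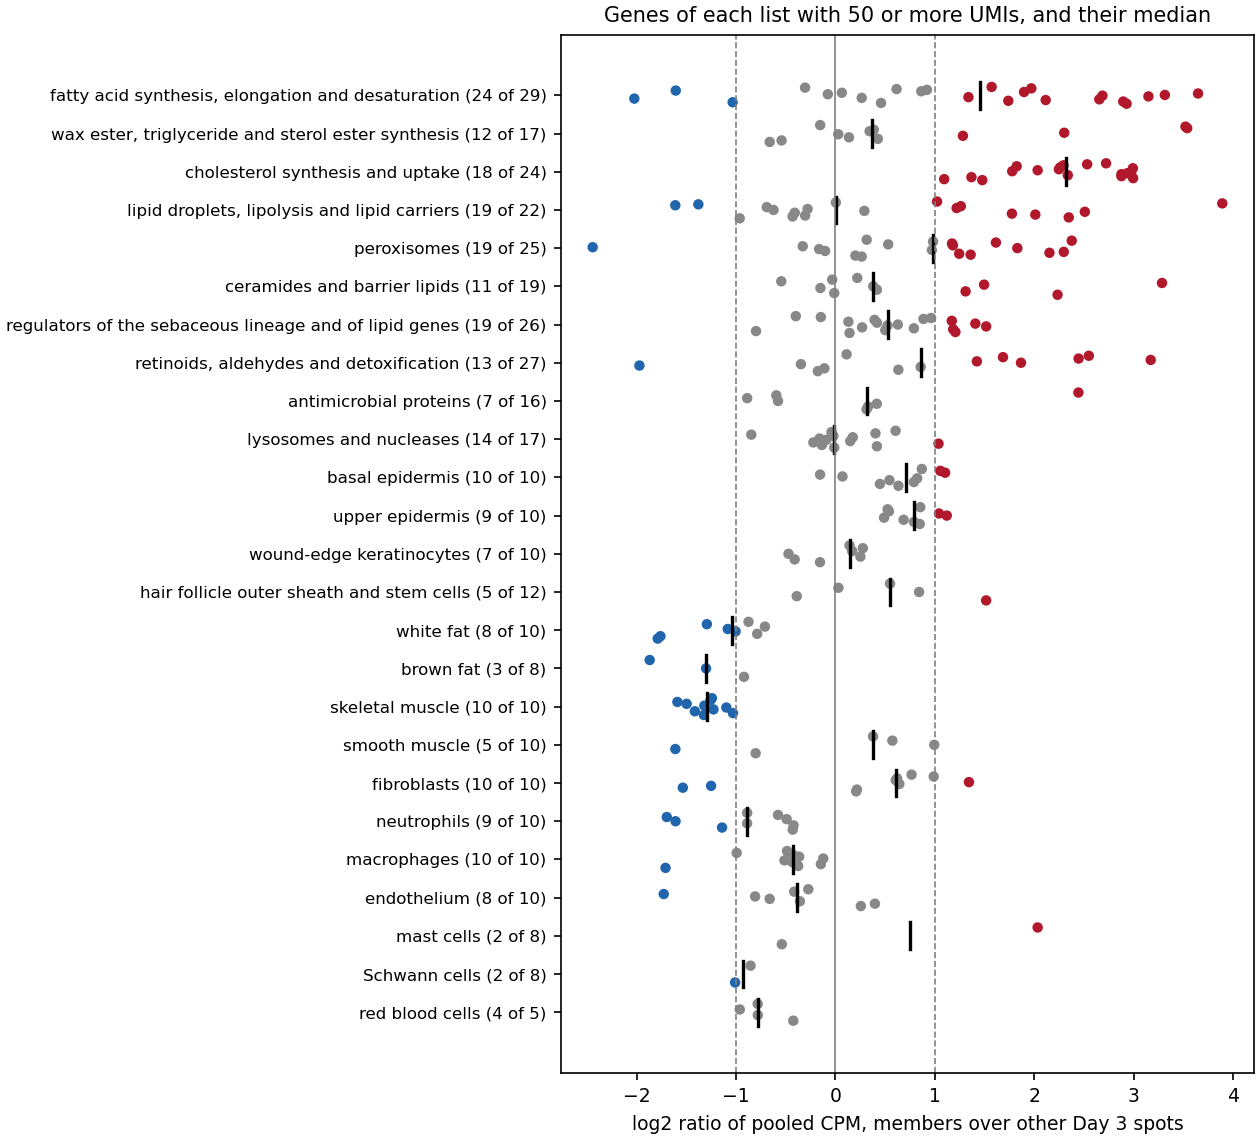
Log2 ratio of pooled CPM in members over other spots on Day 3, 1 point per gene with 50 or more UMIs, for each list (in brackets, genes counted of genes listed), with a bar for the median and dashed lines at 2-fold. All 18 cholesterol genes lie past the upper line (median 2.32) and all 10 muscle genes past the lower one.

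Markers of other cell types differed with the members too. Epidermal genes were present: the basal list (for example *Krt5*, *Krt14*) summed to 9061 CPM in members and 4784 CPM in other spots (ratio 1.89), and the upper epidermis list (*Krt1*, *Krt10*) to 7091 and 4226 CPM (ratio 1.68), each with 2 genes called higher. Over single spots the upper epidermis list ranged over 0 to 46878 CPM in members and 0 to 57489 CPM in other spots, and the basal list over 855 to 51045.5 CPM and 0 to 37820.5 CPM. Fibroblast genes summed to 1.74-fold, with 1 of 10 higher (*Lum*, 2.54-fold) and 2 lower (*Pi16*, 0.42, and *Mfap5*, 0.345). They ranged over 9904 to 273146 CPM in members and 0 to 244896 CPM in other spots. Of 5 follicle outer sheath and stem cell genes counted, *Sox9* alone was called. Of the 18 genes listed for the hair shaft and inner root sheath, the 17 found in the matrix were near 0, with 8 UMIs in all, and 77 of 78 members had none.

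Muscle and fat genes were lower in the members. Of 10 skeletal muscle genes 10 were at least 2-fold lower beside 6.87% of all genes, with a summed ratio of 0.422 (95% interval 0.413 to 0.431). Over single spots the list ranged over 9106 to 54264 CPM in members and 5019.9 to 232980 CPM in other spots. White fat genes had 5 of 8 lower (summed ratio 0.411, 95% interval 0.388 to 0.434) and brown fat genes 2 of 3 (summed ratio 0.32, 95% interval 0.27 to 0.378). White fat genes ranged over 683 to 14675 CPM in members and 0 to 82406 CPM in other spots, and *Ucp1*, the defining gene of brown fat, had no UMI in the members or in the other spots. Among the 15 genes with the lowest upper bound were genes of the muscle fibre's calcium store and contraction, namely *Trdn* (0.187), *Jph1* (0.118), *Hrc* (0.208), *Atp2a1* (0.312) and *Tnnt1* (0.185), and of its energy supply, namely *Ckmt2* (0.241) and *Cox8b* (0.274). *Car3*, abundant in fat and muscle, was at 0.289, *Eef1a2* at 0.226, *Hjv* at 0.197, *Apoc2* at 0.115 and *Eno1*, whose reads may be shared with a near-identical copy, at 0.147. The remaining 3 of the 15 were *Cxcl5*, a neutrophil chemokine, at 0.123 (95% interval 0.0711 to 0.201), *Sfrp2*, a Wnt modulator of fibroblasts, at 0.191 (95% interval 0.134 to 0.264) and *Timp1*, a protease inhibitor, at 0.223 (95% interval 0.175 to 0.282).

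**Figure D4:**
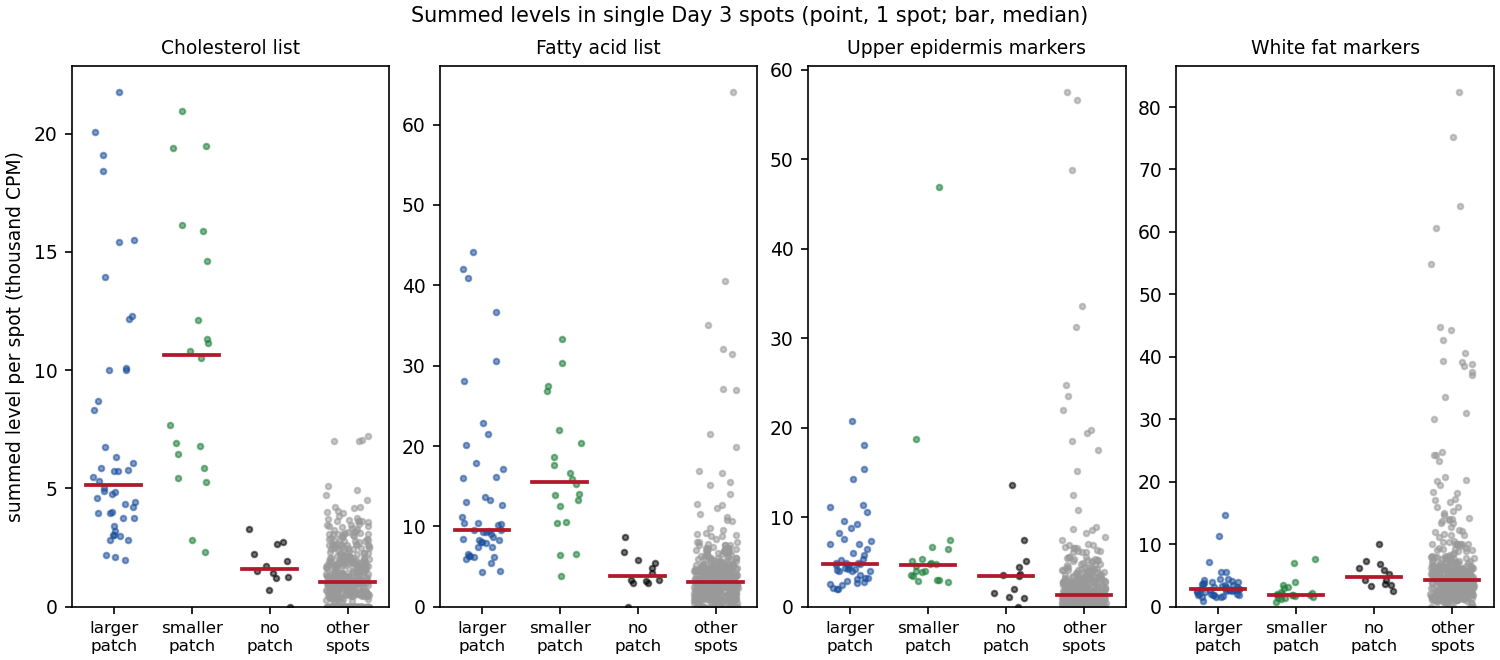
Summed CPM (in 1000) of 4 gene lists in single Day 3 spots by patch, with 1 point per spot and a bar for the median. For cholesterol genes the members reach 21761 CPM and the other spots 7223 CPM, while for white fat genes the highest spots, up to 82406 CPM, are other spots.

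The muscle and fat values depended on where the comparison spots lay. Against only the 115 other spots in array rows 50 to 53, the rows between the members' quartiles, the summed ratio was 1.0 for muscle, 1.06 for white fat and 1.22 for brown fat genes. In this comparison, chosen after the data were seen, 6 of the 15 lowest genes were still at 0.5 or less. *Cxcl5* was at 0.212, *Sfrp2* at 0.158 and *Timp1* at 0.225. The lipid gene values kept their direction: cholesterol genes were at 4.53, fatty acid genes at 4.09 and all 25 leading genes between 4.8 and 25.9. The 25 genes were picked against all other spots, which include these 115. Their values here therefore follow in large part from that choice and support nothing. The fibroblast ratio was 1.11 there and that of the upper epidermis 0.824.

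Immune, vascular and blood markers were mostly under 2-fold apart. Neutrophil genes had 3 of 9 lower (summed ratio 0.63) and macrophage genes 1 of 10, *Arg1* at 0.306 (summed ratio 0.756). Of all genes 6.87% were lower, and 1 lower gene in a list this short cannot be told from that share. Over single spots neutrophil genes ranged over 0 to 14114 CPM in members and 0 to 35066.5 CPM in other spots, and macrophage genes over 0 to 14301 CPM and 0 to 17689 CPM. Of 8 endothelial genes *Flt1* was lower (0.302), of 5 smooth muscle genes *Des* (0.327) and of 2 Schwann cell genes *Mbp* (0.497). Wound-edge keratinocyte genes had none of 7 called and a summed ratio of 1.06. Mast cell genes had 1 of 2 counted called higher, the protease *Mcpt4* at 4.1 (95% interval 2.53 to 6.75), while the other, *Hdc*, which makes histamine, was at 0.688 (95% interval 0.465 to 0.996). The summed ratio of the mast cell list was 1.41, and 0.969 against the members' middle rows. Blood genes (summed ratio 0.565) had none called. The part of these markers in the gland values was not tested.

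Among the members the levels followed the score, which is a description since the score defined the order. The 26 members of highest score (0.552% to 2.51%) held 14088 CPM of the cholesterol list, the middle 26 5899 and the lowest 26 3429, against 1478 in the other spots. For fatty acid genes the values were 24268, 11147 and 6385 CPM. Wound-edge keratinocyte genes ran the other way, at 1119, 1330.2 and 4812 CPM, and basal epidermal genes stood at 7773, 8466 and 12383 CPM. The median depth of these groups fell with the score too, from 8212.5 over 5608.5 to 4417.5 UMIs.

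The 2 patches, a comparison made after they had been seen, differed in wound genes. All 25 leading genes were read in each. Between them 1664 genes had the minimum, of which 48 (2.88%) were at least 2-fold higher in the larger patch and 31 (1.86%) lower. Fatty acid genes stood at 15563 CPM in the larger and 18299.8 in the smaller patch, and cholesterol genes at 8292 and 11454. Wound-edge keratinocyte genes stood at 2668 and 767 CPM, a ratio of 3.48 (95% interval 2.88 to 4.24), with all 5 counted called higher, for example *Krt6a* at 4.07-fold and *Krt16* at 3.5-fold. The acute-phase gene *Saa3* had 298 UMIs in the larger and 8 in the smaller patch, a ratio of 18.3 (95% interval 9.16 to 42.7), and the cytokine gene *Il1b* was at 3.27-fold. Blood genes (2.13-fold) and neutrophil genes (1.86-fold) were higher there as summed lists.

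A leading gland gene was also unequal between the patches. *Cyp2g1* had 65 UMIs in the larger patch and 2 in the smaller, a ratio of 15.9 (95% interval 4.24 to 134). The retinoic acid binding protein gene *Crabp1* (6.93-fold) and *Cpxm1* (5.02-fold) lay the same way. The smaller patch held more of *Paqr7* (larger over smaller 0.495), of the keratin *Krt77* (0.426) and of the epidermal gene *Flg2* (0.274), with *Lor* at 0.517, genes picked after their values were seen. The epidermal lists had none called between the patches, with 0 of 8 upper epidermis genes (larger over smaller 0.839, 95% interval 0.782 to 0.899) and 0 of 7 basal genes (1.19, 95% interval 1.11 to 1.27), which lay in opposite directions.

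Away from the patches the score and cholesterol genes were lower. For the score genes, which chose the members that form the patches, this follows from the choice and supports nothing. With distance counted in pitches, the spacing of neighbouring spots, the spots were the 66 of the patches, 44 adjacent, 42 over 1 to 2 pitches away, 67 over 2 to 4, 157 over 4 to 8 and 132 beyond, with the isolated members left out and the bins set after the data were seen. The cholesterol list stood at 9333, 3059, 1796, 1053, 839.6 and 973 CPM in that order. Fatty acid genes stood at 16464, 5437, 3941, 2720.1, 4860.3 and 6192 CPM, so they were lowest at over 2 to 4 pitches and higher again beyond. White fat genes, whose cells also make fatty acids, stood at 2787, 5359, 4247, 3692, 6638 and 13877 CPM. Upper epidermis genes were highest next to the patches, at 7187, 10494, 8971, 1819, 958 and 1312 CPM, and muscle genes were higher farther out, at 19284.5, 21101.5, 29433, 37628, 71831 and 59760.4 CPM. Spread of transcripts between neighbouring spots and gland tissue outside the patches cannot be told apart in the adjacent spots.

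**Figure D5:**
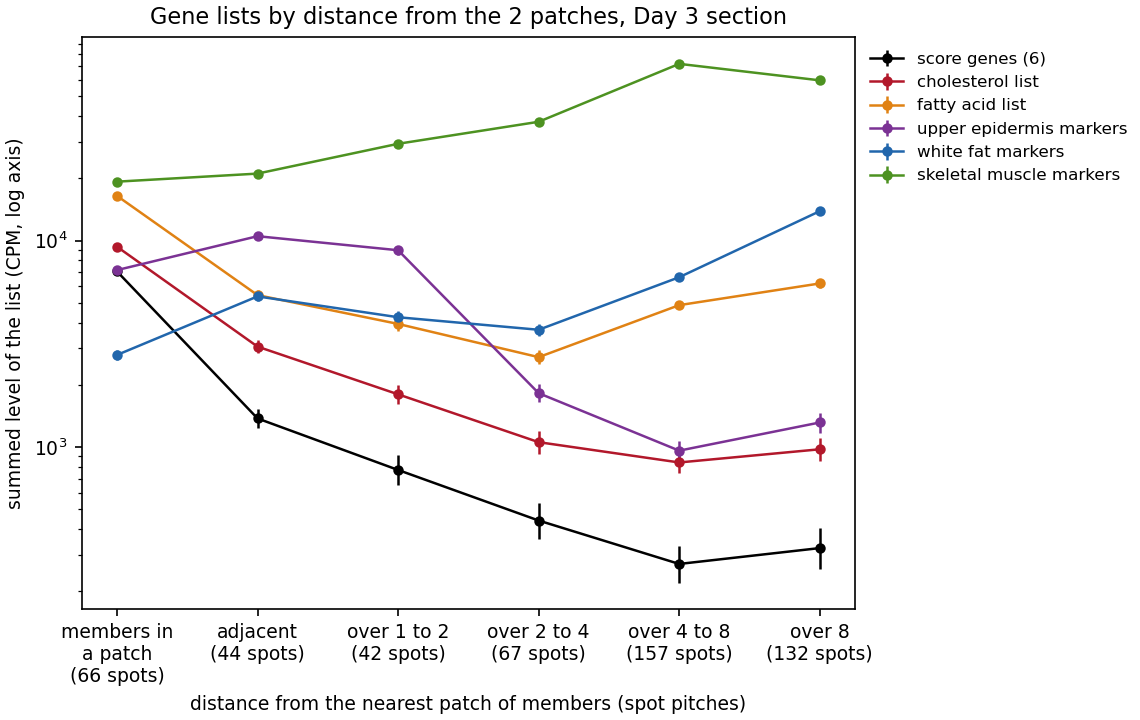
Summed CPM of gene lists in the Day 3 section against distance from the nearest patch of members, in spot pitches, CPM on a log axis, with bars for the 95% counting intervals. Cholesterol genes go from 9333 CPM in the patches to 973 CPM beyond 8 pitches, and muscle genes from 19284.5 to 59760.4 CPM.

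The members were then set against the most similar spots. Of the 15% of spots richest in upper epidermis genes, 32 were members and the other 46 served as epidermis-rich spots. Of 2613 genes, 176 (6.74%) were at least 2-fold higher in members. 24 of 24 leading genes counted were among them, from 3.24 to 13.7-fold. These genes were picked against all other spots, which include the 46 epidermis-rich ones. Their count here therefore follows in large part from that choice and supports nothing. Cholesterol genes had 13 of 17 called (summed ratio 3.12) and fatty acid genes 15 of 19 (3.32). The summed ratio of the regulators was 0.995 (95% interval 0.90 to 1.1) with a median log2 ratio of -0.09. Of 12 counted, *Sox9* was called higher (2.15) and *Klf5* lower (0.399), and *Gata3*, *Fgfr2*, *Cebpa* and *Scap*, called against all other spots, were at 0.575, 0.726, 1.27 and 1.54. Muscle (1.02), white fat (1.02) and fibroblast genes (1.14) were within 1.5-fold, while the upper epidermis list, which chose these spots, was at 0.421 and the basal list at 0.638. Wound-edge keratinocyte genes were at 0.425.

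Fat makes lipid as well, so 75 spots rich in white fat genes formed another comparison. Here the median gene was 0.32 higher on the log2 scale in members, and 592 of 2401 genes (24.7%) were called higher. The ratios that follow are not corrected for this shift and are to be read against it. All 24 leading genes counted were called, but the fat-rich spots too are among those against which these genes were picked. Cholesterol genes had 15 of 16 called (summed ratio 6.95). Fatty acid genes had 12 of 20 called higher and 4 lower, beside 24.7% and 12.2% of all genes. Their median log2 ratio was 1.35, but they summed to only 1.25-fold. *Scd1* was at 0.995 (95% interval 0.929 to 1.07) and *Fasn* at 0.385 (95% interval 0.333 to 0.444). Both lay below the median gene of this comparison. Elongases were again higher, with *Elovl6* at 8.59-fold and *Elovl5* at 5.33-fold.

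The same rule was applied to the later sections, in spots that played no part in choosing the Day 3 members. It chose 81 of 539 spots on Day 7, with scores from 0.118% up, and 103 of 689 on Day 14, from 0.262%. The median score of the Day 7 set, 0.155%, was below the 0.209% of the lowest Day 3 member. The sets compared below are therefore unlike in score. On Day 7 19 of the 19 Day 3 leading genes counted were at least 2-fold higher in the chosen spots (2.12 to 5.16-fold), beside 2.4% of all genes. On Day 14 it was 25 of 25 (2.5 to 7.16-fold), beside 1.84%. The summed ratio of cholesterol genes was 6.17, 2.73 and 2.28 in order of day, and that of fatty acid genes 3.42, 1.68 and 2.35.

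In level, the chosen spots of the 3 days held 9118, 2985 and 5713 CPM of cholesterol genes, in order of day. The other spots held 1478, 1094 and 2510 CPM, so the level outside the chosen spots also differed between the sections. For *Elovl6* the pooled levels in the chosen spots were 2061, 757 and 1526 CPM. *Defb8* was unevenly read, with 128 UMIs over the spots used on Day 3, 2 on Day 7 and 384 on Day 14. Hair shaft and inner root sheath genes, near 0 on Day 3, reached 6401 CPM in the chosen and 6473 CPM in the other spots on Day 14. The days differ in section, depth, tissue cut and the score of the chosen spots, and with 1 section each the day cannot be told apart from these.

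Outside the marked tissue, 674 unmarked Day 3 spots held at least 500 UMIs and 56 of them (8.31%) scored as high as the lowest member. Most were shallow, with a median of 728.5 UMIs, and 44 had fewer than 5 score UMIs. 8 lay within 1.5 pitches of a patch and 18 over 10 pitches away. Against the other unmarked spots, 625 of 3337 genes (18.7%) were called higher, or 177 with TMM scaling, around a median log2 ratio of 0.14. With plain totals the genes called included all 10 leading genes counted, with cholesterol genes at 4.65-fold. The ratios given here are not corrected by the TMM factor of 1.65, which would lower each of them. The epidermal lists summed to 7.7-fold for the upper epidermis and 9.15-fold for wound-edge keratinocytes, and muscle genes to 0.366.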

How the data were processed

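Spatial transcriptomes (10x Visium) of 3 sections of wounded mouse skin, 1 per day (Days 3, 7 and 14), were used. The deposited values are raw UMI counts per gene and spot (32285 genes, 4992 spots per slide) with a positions table. The authors made them with Space Ranger 1.3.0 on mm10, per the submitters' processing notes. Counts were not normalised or filtered by the authors beyond this, so unmarked spots are included.

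The 6-gene score, the members and all gene lists were chosen with earlier results of these data known. Counts were summed over spots and divided by the summed totals (CPM). Ratios carry exact conditional binomial 95% intervals, CPM exact Poisson intervals and shares exact Clopper-Pearson intervals. No test was run, since each day has 1 section. Genes needed 50 UMIs over both sets, and a ratio of at least 2 or at most 0.5 was called. A median over the genes of a list covers only those with the minimum. Genes named were the 6 score genes, the 25 with the highest lower bound of the ratio, the 15 with the lowest upper bound and list genes with the minimum; genes named for the patches by the same bounds, *Lor* included, were picked after their values were seen. Shares of spots with a UMI were also computed after thinning each spot to 500 UMIs (seed 1). Scripts were tested on simulated data. Some genes within these rules are not reported here. Promoter windows came from RefSeq, gene positions from the GRCm38 annotation. Alternatives were other shares of spots, UMI minimums, scores, scalings (TMM, DESeq2 size factors) and comparison spots. Doublet calling does not apply to spots. Software was Python 3.11.15, numpy 2.4.6, scipy 1.17.1, pandas 2.3.3, matplotlib 3.10.9, R 4.3.3, edgeR 4.0.16 and DESeq2 1.42.0.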

Additional observations from a re-analysis of the deposited data

Results flagged for a closer look

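Some summed lists lay on opposite sides of 1 in the chosen spots of different days, and these differences were not tested. Antimicrobial genes were at 1.5 on Day 14 against 0.787 on Day 3. Upper epidermis genes were at 0.939 on Day 14 against 1.68 on Day 3. On Day 7, white fat genes were at 1.26 against 0.411 on Day 3, brown fat genes at 1.15 against 0.32, muscle genes at 1.12 against 0.422 and fibroblast genes at 0.847 against 1.74. Beside this stand the values against the members' own rows on Day 3, where the muscle, white fat and brown fat lists were at 1.0, 1.06 and 1.22.

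Spots that the positions table does not mark as tissue also held the gland score. 56 unmarked Day 3 spots reached the lowest member's score, and their distance from the nearest patch ranged from 1 to 27.4 pitches.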

How the results depend on the processing

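No paired analysis was possible because there was 1 section per day. The direction of the leading genes was kept throughout, with none of 520 ratios over 21 alternatives reversed. Of these, 67 moved outside the counting interval of the main value. The leading genes were picked as high in this same section. Their kept direction therefore follows in large part from that choice and supports nothing. Of 545 list ratios 172 moved and 3 reversed, of 312 ratios of the 15 lowest genes 36 moved and 3 reversed, and of 5277 ratios of list genes 656 moved and 15 reversed. The count of genes higher in members, 376, was 608 with the mean of spot CPM in place of pooled CPM, 63 in thinned spots, 213 against the members' middle rows, 2594 with no minimum per gene, 194 with 100 UMIs, 923 at 1.5-fold and 140 at 3-fold. The count lower, 387, was 138, 113, 3153, 205, 863 and 108 under the last 6 of these, 164 against other spots of like depth and 209 within 3 pitches. The mean of spot CPM changed the higher share of calls to 59.8% from 49.3%. With TMM factors 177 genes were higher in the unmarked spots, against 625. Fewer genes were tested in thinned spots and against fewer comparison spots, and for the mean of spot CPM and the TMM factors the cause was not tested.

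Reversed values were *Crat* 0.386 and *Plin1* 2.27 in thinned spots, *Pi16* 1.44 and *Mbp* 1.14 against spots of like depth, and, against the members' middle rows, the lists white fat 1.06, brown fat 1.22 and muscle 1.0, with *Car3* 1.03, *Cox8b* 1.09, *Atp2a1* 1.0, *Krt15* 0.913, *Cfd* 1.08, *Cox7a1* 1.67, *Acta1* 1.03, *Ckm* 1.01, *Myl1* 1.08, *Tnnc2* 1.01, *Pvalb* 1.09 and *Mmp9* 1.0. The comparisons with middle rows, within 3 pitches, with members of at least 5 score UMIs and of the patches were added after the data were seen. Depth limits sparse genes: with 12 UMIs of *Pparg* in members, no difference of modest size could be seen.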
